A study of Mus musculus with 6 samples.

Results

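The 9 genes described here belong to the CXC and CX3C chemokine system. They comprise the neutrophil chemokine genes Cxcl1, Cxcl2 and Cxcl5, the interferon-induced chemokine genes Cxcl9 and Cxcl10, the homeostatic chemokine gene Cxcl12, the membrane-bound chemokine genes Cxcl16 and Cx3cl1, and Cx3cr1, which encodes the receptor for Cx3cl1. They were chosen by name, and all 9 were found among the 14298 genes analysed. Chemokines are small proteins that guide leukocytes through G protein-coupled receptors, and the CXC and CX3C classes are named for the spacing of their conserved cysteines. Cxcl1, Cxcl2 and Cxcl5 signal through Cxcr2, mainly on neutrophils. Cxcl9 and Cxcl10 draw T cells and natural killer cells through Cxcr3, and Cxcl12 binds Cxcr4 and the scavenging receptor Ackr3. Cxcl16 and Cx3cl1 (fractalkine) are made as membrane proteins on a mucin stalk and are released by the metalloproteases Adam10 and Adam17. In atherosclerotic arteries this family is known for the capture and retention of monocytes and neutrophils at the inflamed vessel wall.

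PolyA RNA of aortic arches was sequenced from adult C57/BL6 mice in 2 groups. The knockout group held 3 ApoE-/-;RBPJflox/flox;Cdh5-CreERT libraries (S595, S598 and S599) and the control group 3 ApoE-/-;RBPJflox/flox libraries (S591, S592 and S594). All animals lacked apolipoprotein E, carried floxed Rbpj, received tamoxifen for 1 week when 8 weeks old and then ate a high-fat diet for 6 weeks. Cdh5-CreERT is a tamoxifen-dependent recombinase driven by the promoter of the endothelial cadherin gene. By design the deletion of Rbpj, the transcription factor behind Notch receptors, is thus directed at endothelium, while RNA came from the whole arch. The control mice had no recombinase, so its presence and the deletion cannot be told apart. The number in a library's name is in no sample label. No label says that libraries came from separate animals, so the p-values measure the spread between these libraries.

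Values are normalised CPM, that is reads scaled to a common library size. Depth over the analysed genes ran from 5904504 to 10072495 reads per library. Rbpj itself stood at 169, 197 and 212 normalised CPM in knockout S595, S598 and S599, against 174, 191 and 200 in control S591, S592 and S594, and whole-arch values do not check a deletion in 1 cell type. The endothelial marker list was present in both groups. Transcripts of T cells and thymocytes summed to 208 and 94.8 in knockout S598 and S599, against 30.1 in knockout S595 and 32.6 to 43.9 in the controls. Airway transcripts summed over 5 markers to 65.0 to 86.2 in the knockouts, against 2.93 to 8.49 in the controls. Of these markers Scgb3a1, Scgb3a2 and Bpifb1, below 1 CPM in every control, were analysed only through the knockouts.

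Of the 9 genes, 7 had every knockout value below every control value: Cxcl1, Cxcl2, Cxcl5, Cxcl12, Cxcl16, Cx3cl1 and Cx3cr1. Among them Cxcl2 was analysed only through its controls, since all genes analysed reached 1 CPM in at least 3 libraries. The same held for 14.2% of all 14298 genes, while 11.3% had every knockout value above every control value. Cxcl9 and Cxcl10 overlapped between the groups. The median log2 fold change, knockout minus control, was −1.05 over the 9 genes and −0.02 over all genes, and 8 of the 9 against 52.2% of all genes were below 0. Below −1 were 5 of the 9, against 2.5% of all genes. Log2 fold changes are on the log2(value + 1) scale, which understates those of low genes, and are given for each gene with ± its standard error. By limma with Benjamini-Hochberg adjustment over all genes, 0 of the 9 passed a threshold of 0.05, where 0% of all genes passed as lower and 0.021% as higher. Unadjusted p-values were under 0.05 for 7 of the 9, all lower, against 12% of all genes lower and 8.04% higher. After quantile normalisation that split over all genes was 1430 lower and 1540 higher, against 1710 and 1150 as deposited, and 7 of the 9 stayed lower. The edgeR quasi-likelihood test and limma-voom on recovered whole reads passed 0 of the 9 as well, each with 7 lower at an unadjusted p under 0.05. For all genes that share was 12.1% lower and 8.13% higher by edgeR, and 12.4% lower and 8.49% higher by limma-voom. DESeq2 on the same reads called 6 of the 9 lower (all but Cxcl9, Cxcl10 and Cx3cr1), against 4.44% of all genes it adjusted as lower and 2.07% as higher. It had 7 of the 9 lower at an unadjusted p under 0.05, against 10.4% of all genes lower and 7.81% higher. With limma array weights the same 6 genes passed, against 5.06% of all genes lower and 2.01% higher. In bulk RNA fewer cells of a type and less RNA per cell cannot be told apart.

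**Figure D1:**
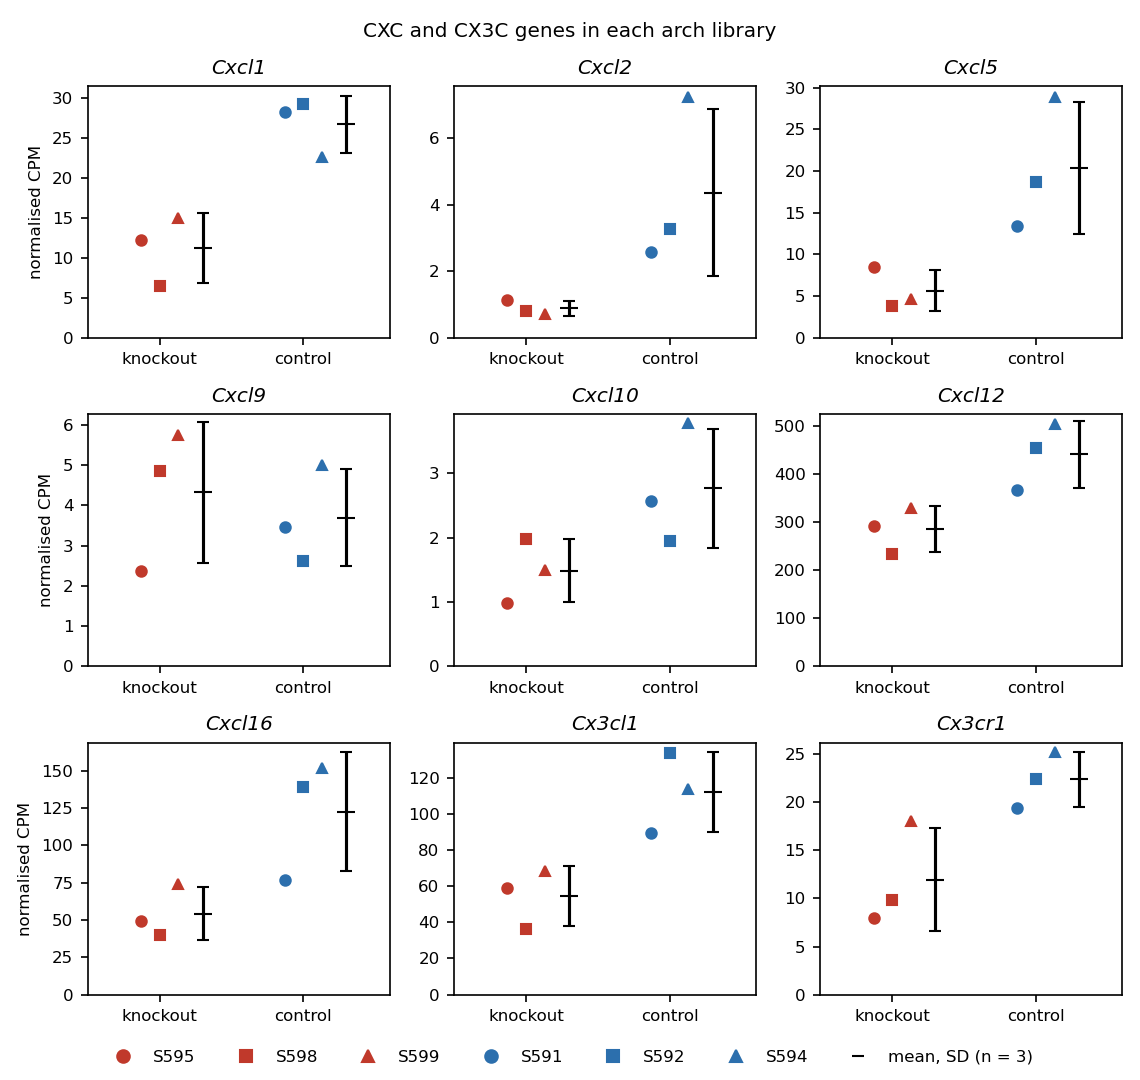
Normalised CPM (vertical axes, from 0) of each of the 9 genes in the 3 knockout (red) and 3 control (blue) libraries, with the mean and SD in black (n = 3). The knockout points lie below all control points for 7 genes and overlap them for Cxcl9 and Cxcl10.

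The neutrophil chemokine genes showed the lowest ratios of knockout to control means in the family. Cxcl1 (ENSMUSG00000029380), an early product of activated endothelium and macrophages, stood at 12.3, 6.51 and 15.0 normalised CPM in knockout S595, S598 and S599, against 28.3, 29.3 and 22.6 in control S591, S592 and S594. The groups did not overlap, and S598 was the lowest library. The ratio of means, knockout over control, was 0.421, and limma put the difference at −1.24 ± 0.28 on the log2 scale (95% interval −1.88 to −0.59, limma, Benjamini-Hochberg adjusted p = 0.111). Cxcl5 (ENSMUSG00000029371), another Cxcr2 ligand, stood at 8.45, 3.81 and 4.64 in the knockouts, against 13.4, 18.7 and 28.9 in the controls. Knockout S598 and S599 were the low libraries here and control S594 the high one. On the log2 scale knockout minus control came to −1.68 ± 0.34 (95% interval −2.46 to −0.90, limma adjusted p = 0.107), and knockout over control means gave 0.277.

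Cxcl2 (ENSMUSG00000058427), which encodes the macrophage-derived chemokine MIP-2, was a low transcript with 4 to 58 reads per library. It stood at 1.14, 0.820 and 0.708 normalised CPM in the knockouts, against 2.58, 3.29 and 7.25 in the controls. Control S594 was far above the other controls, yet all 3 controls were above all knockouts. Limma estimated −1.42 ± 0.33 on the log2 scale for this difference (95% interval −2.19 to −0.64, limma adjusted p = 0.118), and on recovered reads DESeq2 gave −2.39. Without control S594 the limma value was −1.06. Knockout S598 and S599 were below 1 CPM, and all genes analysed reached 1 CPM in at least 3 libraries. Cxcl2 was thus analysed only because its controls were high, so its separation and fold change are partly set by that filter. Annotated transcripts of Cxcl2 and its neighbour Cxcl3 share an exact run of 157 bases, so reads of Cxcl2 could belong to Cxcl3, while Cxcl1 and Cxcl2 share at most 23 bases. For each of these 3 genes an exact two-sided permutation test gave p = 0.1, the smallest that 3 against 3 libraries allow.

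The promoters of Cxcl1 and Cxcl2 are shown because each of these neighbouring genes had every knockout value below every control value. Their order of libraries differed. Control S594 was the lowest control for Cxcl1 and the highest for Cxcl2, and knockout S599 the highest knockout for Cxcl1 and the lowest for Cxcl2. That of Cxcl10 is shown because it belongs to the interferon-induced pair whose groups overlapped. That of Cx3cl1 is shown as an example of the 3 windows with letters of the Rbpj motif. The others with these letters, Cxcl12 and Cx3cr1, are not shown. RefSeq sequences (build GRCm38.p6, 250 bases before to 50 after the start site, 5′ to 3′ on the gene's strand) were matched for 7 of the 9 genes. Capitals mark matches on either strand to a kappaB motif (GGG, any 3 bases, then TTCC), an interferon response core (GAAA, any 2 bases, then GAAA) or an Rbpj motif (TGGGAA). The windows are chr5:90890995-90891294 (plus strand) for Cxcl1, chr5:90903649-90903948 (plus strand) for Cxcl2, chr5:92348840-92349139 (minus strand) for Cxcl10 and chr8:94771930-94772229 (plus strand) for Cx3cl1.
Cxcl1: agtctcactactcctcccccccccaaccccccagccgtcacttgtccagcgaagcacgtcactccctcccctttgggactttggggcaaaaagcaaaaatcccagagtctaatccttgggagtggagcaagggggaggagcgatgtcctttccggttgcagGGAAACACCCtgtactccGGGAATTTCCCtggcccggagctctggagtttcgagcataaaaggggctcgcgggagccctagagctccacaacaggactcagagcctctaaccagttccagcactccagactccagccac
Cxcl2: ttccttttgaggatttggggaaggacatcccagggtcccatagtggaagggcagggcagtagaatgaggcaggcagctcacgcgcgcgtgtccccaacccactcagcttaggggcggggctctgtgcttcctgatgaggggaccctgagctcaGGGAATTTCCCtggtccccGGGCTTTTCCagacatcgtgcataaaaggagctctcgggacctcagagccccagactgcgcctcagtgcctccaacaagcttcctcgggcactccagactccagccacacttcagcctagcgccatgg
Cxcl10: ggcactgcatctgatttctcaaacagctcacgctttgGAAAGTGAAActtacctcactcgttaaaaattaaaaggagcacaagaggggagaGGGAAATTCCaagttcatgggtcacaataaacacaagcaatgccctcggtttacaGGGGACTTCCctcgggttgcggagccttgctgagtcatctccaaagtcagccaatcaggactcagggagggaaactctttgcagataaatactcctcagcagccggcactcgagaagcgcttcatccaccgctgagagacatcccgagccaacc
Cx3cl1: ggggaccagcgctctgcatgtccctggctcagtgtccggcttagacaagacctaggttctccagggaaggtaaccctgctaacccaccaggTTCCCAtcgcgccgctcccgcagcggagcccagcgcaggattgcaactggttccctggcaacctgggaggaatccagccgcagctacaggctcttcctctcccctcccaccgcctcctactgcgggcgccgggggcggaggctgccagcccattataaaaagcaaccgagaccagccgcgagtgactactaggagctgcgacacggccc
Cxcl1 and Cxcl2 carried the same run GGGAATTTCCC, in which both strands match and the matches overlap, starting 71 and 97 bases before the start site. The kappaB letters occurred in 3 of the 7 windows (Cxcl1, Cxcl2 and Cxcl10) and in 5.56% of all 32851 promoter windows of the same length. The interferon core was found in 1 of the 7 (Cxcl10), against 3.44% of all windows. The Rbpj letters occurred in 3 of the 7 (Cxcl12, Cx3cl1 and Cx3cr1), against 25.6% of all windows. These matches describe letters in a window and show no binding.

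Of the 10 neutrophil markers, 4 were analysed, and none of them was without reads. Their sum was 19.3, 20.3 and 29.6 in the knockouts, against 35.9, 38.6 and 106 in the controls, so it did not overlap either. Most of that sum was Csf3r, at 15.4, 12.1 and 22.4 in the knockouts, against 23.7, 28.4 and 54.2 in the controls. Ly6g, Camp, Ngp, Retnlg, Mpo and Elane were not analysed. The marker Il1r2, below 1 CPM in knockout S598 and S599, was analysed only through its controls. The separation of the sum is thus partly set by the rule of 1 CPM in at least 3 libraries. Control S594, the highest library for Cxcl2 and Cxcl5, held the highest sum. The calgranulin gene S100a9 stood at 1.45, 3.42 and 2.75 in the knockouts, against 4.71, 3.96 and 27.8 in the controls. Of the 4 markers 3 were apart and lower (Csf3r, S100a9 and Il1r2), against 14.2% of all genes. The marker S100a8 overlapped (log2 fold change −1.09), since knockout S599 at 4.17 and knockout S598 were above control S592 at 3.82. The part of neutrophil transcripts in the values of these 3 chemokine genes was not tested.

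The interferon-induced pair did not separate the groups. Cxcl9 (ENSMUSG00000029417), induced by interferon gamma in macrophages, stood at 2.36, 4.87 and 5.74 normalised CPM in knockout S595, S598 and S599, against 3.46, 2.62 and 5.02 in control S591, S592 and S594. The lowest and the highest of the 6 values were both from knockout libraries. The limma difference on the log2 scale was 0.15 ± 0.32 (95% interval −0.59 to 0.89, that is 0.664-fold to 1.86-fold, limma adjusted p = 0.829, exact permutation p = 0.8). Its sign turned without control S592 (−0.02), without knockout S599 (−0.050) and without knockout S598 and S599 together (−0.45). Cxcl10 (ENSMUSG00000034855), the better known Cxcr3 ligand of inflamed tissue, stood at 0.989, 1.98 and 1.49 in the knockouts, against 2.58, 1.94 and 3.78 in the controls. Knockout S598 was just above control S592. Knockout minus control was −0.59 ± 0.27 in log2 (95% interval −1.21 to 0.03, limma adjusted p = 0.273, exact permutation p = 0.2). The ratio of means for Cxcl10 was 0.537, against 0.535 for Cx3cr1 and 0.646 for Cxcl12, whose groups were apart.

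Between 6 and 50 reads per library lay behind Cxcl9 and Cxcl10, and the part of counting error in their spread was not tested. Over the 10 T cell and thymocyte markers, knockout S598 and S599 had the highest sums, and knockout S595, the lowest library for Cxcl9 and Cxcl10, had the lowest sum at 30.1. The share of thymocyte RNA in the Cxcl9 and Cxcl10 values was not tested. Of the 6 natural killer cell markers 1 was analysed, Klrk1, at 0.708 to 1.598 in the knockouts, against 1.69 to 2.35 in the controls.

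Cxcl12 (ENSMUSG00000061353), which encodes stromal cell-derived factor and is made by fibroblasts, smooth muscle and endothelium, was the most abundant member with 1911 to 4064 reads per library. It stood at 291, 234 and 330 normalised CPM in the knockouts, against 366, 453 and 503 in the controls. The gap between the groups was small, since control S591 was 1.11 times knockout S599. In limma the log2 difference came to −0.63 ± 0.17 (95% interval −1.02 to −0.24, limma adjusted p = 0.127), and the exact permutation p was 0.1. The ratio of means was 0.646, the nearest to 1 of the 7 genes whose groups were apart. Fibroblast markers summed over 6 genes to 6399 to 8443 in the knockouts, against 9161 to 15314 in the controls, and smooth muscle markers over 6 genes to 20809 to 28888, against 11914 to 20719. Most of the fibroblast sum was the matrix genes Col3a1, Col1a1 and Dcn. Of the 6 fibroblast markers 3 were apart and lower (Dcn, Lum and Col3a1), against 14.2% of all genes. Col1a1 (log2 fold change −0.89), Pdgfra (−0.16) and Dpt (−0.09) overlapped. The part of either cell type in the Cxcl12 value was not tested.

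The membrane-bound chemokine genes stood at about the same distance from their controls as each other. Cxcl16 (ENSMUSG00000018920), whose product also takes up oxidised lipoproteins in macrophages, stood at 49.1, 39.6 and 73.8 normalised CPM in the knockouts, against 77.0, 139 and 151 in the controls. Knockout S599 and control S591 were nearly level. Knockout minus control by limma was −1.15 ± 0.30 on the log2 scale (95% interval −1.85 to −0.45, limma adjusted p = 0.122). Cx3cl1 (ENSMUSG00000031778), the fractalkine gene of activated endothelium and smooth muscle, stood at 59.3, 36.4 and 68.7 in the knockouts, against 89.5, 134 and 114 in the controls. Here the lowest control was 1.303 times the highest knockout. Limma gave a log2 difference of −1.05 ± 0.24 (95% interval −1.62 to −0.48, limma adjusted p = 0.115). Both had an exact permutation p of 0.1.

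Endothelial markers overlapped between the groups, with sums over 10 genes of 919, 904 and 1384 in the knockouts, against 1134, 1197 and 1147 in the controls. Knockout S599 held the highest endothelial sum of the 6 libraries, and its Cx3cl1 value was below every control. The part of endothelial or macrophage transcripts in the Cx3cl1 value was not tested. Macrophage markers over 10 genes summed to 3198, 2512 and 5788 in the knockouts, against 5696, 7496 and 9308 in the controls, and S599 overlapped the controls. Most of that sum was the lysozyme gene Lyz2, at 1942, 1558 and 4120 in the knockouts, against 3765, 4981 and 6470 in the controls. Of the 10 markers 7 were apart and lower, against 14.2% of all genes, while Lyz2, Csf1r and Mertk overlapped. The part of macrophage transcripts in the Cxcl16 value was not tested.

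Cx3cr1 (ENSMUSG00000052336), the fractalkine receptor gene of monocytes and tissue macrophages, stood at 7.99, 9.88 and 18.0 normalised CPM in the knockouts, against 19.5, 22.5 and 25.2 in the controls. Knockout S599 was close to the controls and the other two knockouts were well below it. Its estimated log2 difference was −0.92 ± 0.27 (95% interval −1.56 to −0.28, limma adjusted p = 0.141, exact permutation p = 0.1). Without S599 it was −1.23. The macrophage sums given above had the same 2 low libraries. Monocyte markers summed over 6 genes to 199 to 259 in the knockouts, against 224 to 347 in the controls. The part of macrophage or monocyte transcripts in the Cx3cr1 value was not tested.

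Levels can be compared between genes per kilobase of annotated exon (GENCODE M21). On that scale the controls ranked Cxcl12 first at 61.6 ± 9.68 normalised CPM per kb (SD, n = 3), then Cxcl16 at 45.4 ± 14.8, Cx3cl1 at 31.8 ± 6.27 and Cxcl1 at 28.1 ± 3.80. Each of these 4 overlapped its neighbour in the order over the 3 control libraries. Cxcl5 followed at 12.9 ± 5.01, Cx3cr1 at 4.97 ± 0.639 and Cxcl2 at 2.35 ± 1.35, with no overlap between Cxcl1, Cxcl5, Cx3cr1 and Cxcl2 as neighbours. Cxcl10 at 1.82 ± 0.613 and Cxcl9 at 1.28 ± 0.422 overlapped each other, and Cxcl10 overlapped Cxcl2. In the knockouts the same genes led, with Cxcl12 at 39.8 ± 6.69, Cxcl16 at 20.1 ± 6.55, Cx3cl1 at 15.5 ± 4.70 and Cxcl1 at 11.8 ± 4.56. Cxcl2 was last at 0.479 ± 0.121, under Cxcl9 at 1.496 ± 0.608 and Cxcl10 at 0.978 ± 0.325 without overlap.

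The shares of the 8 ligands in their summed level re-express the values given above. Summed per kilobase over the 8 ligands, the pool was 95.9, 70.4 and 115 normalised CPM per kb in knockout S595, S598 and S599, against 148, 199 and 209 in control S591, S592 and S594. Cxcl12 made up 42.4%, 46.5% and 40.1% of that sum in the knockouts, against 34.7%, 31.8% and 33.7% in the controls, with no overlap. The 3 neutrophil chemokine genes made up 19.6%, 13.8% and 16.6% in the knockouts, against 26.9%, 22.3% and 22.0% in the controls, again with no overlap. The membrane-bound pair held 36.5%, 35.5% and 40.7%, against 36.5%, 44.8% and 42.3%, and these overlapped. The interferon-induced pair held 1.53%, 4.24% and 2.59%, against 1.96%, 1.10% and 2.02%, and overlapped as well. The level of Cxcl12 itself was lower in the knockouts, so its higher share reflects lower values of other ligands. These shares are descriptions with no test.

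Among the 7 genes whose groups were apart, knockout S599 was the highest knockout for 5 and S595 for 2 (Cxcl2 and Cxcl5). Control S591 was the lowest control for 6 of the 7, and S594 for Cxcl1. Among all 2029 genes with every knockout below every control, S599 was the highest knockout for 48.6% and S591 the lowest control for 65.1%. Knockout S598 was the lowest knockout for 5 of the 7, with S599 lowest for Cxcl2 and S595 for Cx3cr1, and for 59.8% of the 2029. With knockout S595 as the 1 knockout library left, assumed to vary like the controls, 6 of the 9 genes were lower at an unadjusted p under 0.05 by limma (all but Cxcl2, Cxcl9 and Cxcl10), against 6.33% of all genes lower and 3.09% higher, and the median over the 9 was −1.06.

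**Figure D2:**
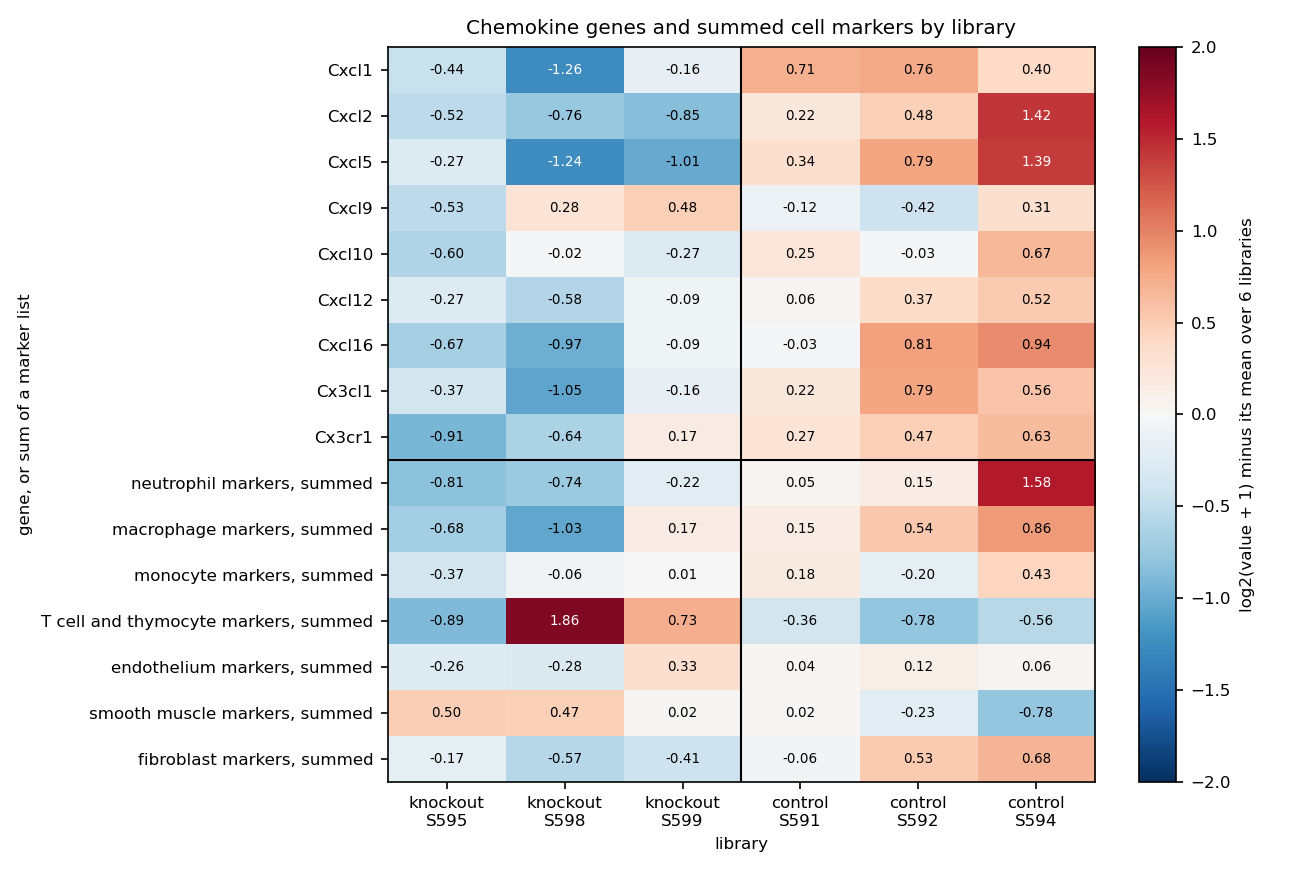
Log2(value + 1) of each gene, and of each summed marker list, minus its mean over the 6 libraries (colour and printed value), with knockout libraries left of control libraries. S598 is lowest for Cxcl1 (−1.26), Cxcl5 (−1.24), Cxcl12, Cxcl16 and Cx3cl1, and S594 is highest for Cxcl2 (1.42), Cxcl5 (1.39) and the neutrophil sum (1.58).

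Each library was left out in turn. Without control S591, limma called Cxcl2, Cxcl5, Cxcl16 and Cx3cl1 lower (4 of 9), against 3.29% of all genes lower and 1.41% higher, with adjusted p-values of 0.0342 for Cxcl5, 0.0337 for Cxcl16, 0.0444 for Cxcl2 and 0.0491 for Cx3cl1 after Benjamini-Hochberg adjustment. With any other library left out, limma called 0 of the 9, and 7 or 8 of them were lower at an unadjusted p under 0.05. Cxcl10 joined the 7 without S592 and without S598. The share of all genes lower at that p was 9.41% without S592, 7.25% without S594, 11.7% without S595, 7.26% without S598 and 11.3% without S599. Cxcl5 ranged from −1.97 to −1.41 over the 6 fits and Cxcl1 from −1.47 to −0.92. Cxcl16 ranged from −1.45 to −0.95, Cx3cl1 from −1.24 to −0.79, Cx3cr1 from −1.23 to −0.69 and Cxcl12 from −0.76 to −0.50. Among the 9 genes Cxcl9 was the 1 whose sign turned.

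**Figure D3:**
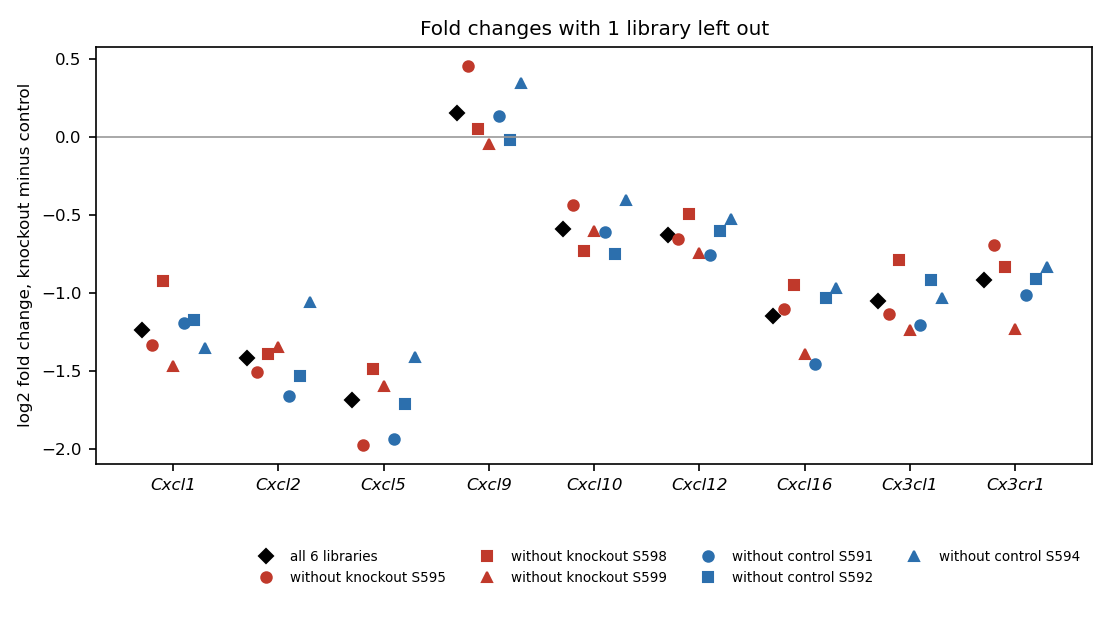
Log2 fold change, knockout minus control (vertical axis), of each gene with all 6 libraries (black diamonds) and with 1 knockout (red) or 1 control (blue) library left out. Every value of the 8 genes other than Cxcl9 is below 0, and Cxcl9 ranges from −0.050 to 0.45.

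Other genes of the chemokine pathway were taken from a list of 41, of which 33 were found among the genes analysed. The other 8 (Cxcl3, Cxcl11, Cxcl15, Cxcl17, Ppbp, Xcl1, Cxcr5 and Ifng) were not analysed here. By limma 0 passed over all genes in either direction, an unadjusted p under 0.05 was reached by 15 lower and 1 higher, and 16 had all knockout values below and 2 above the controls. DESeq2 called 7 lower and 0 higher. The median log2 fold change was −0.41, and 29 of the 33 were below 0. Over all genes an unadjusted p under 0.05 was reached by 12% as lower and 8.04% as higher, 14.2% were apart and lower and 11.3% apart and higher, DESeq2 called 4.44% lower and 2.07% higher, and 52.2% were below 0. The list was drawn up with earlier results of these data known, so it gives no independent support.

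Among the receptors 7 were analysed, and all 7 had negative log2 fold changes (median −0.52). Cxcr2, through which Cxcl1, Cxcl2 and Cxcl5 act, stood at 0.533, 1.88 and 0.550 normalised CPM in the knockouts, against 2.22, 3.42 and 7.49 in the controls, on 3 to 60 reads per library. Its highest knockout lay under its lowest control (log2 fold change −1.38, limma adjusted p = 0.143). Knockout S595 and S599 were below 1 CPM, so Cxcr2 too was analysed only through its controls. Cxcr4, the receptor of Cxcl12, stood at 22.3, 19.6 and 26.5, against 20.5, 51.8 and 62.9, so that control S591 lay among the knockouts (−0.82, limma adjusted p = 0.275). The scavenging Cxcl12 receptor gene Ackr3 stood at 104, 115 and 108, against 140, 129 and 131 (−0.29, limma adjusted p = 0.151), and the duffy receptor gene Ackr1 at −0.66. Cxcr3 (−0.26) and the Cxcl16 receptor gene Cxcr6 (−0.52) overlapped between the groups, and so did Cxcr1 (−0.41). Of the other ligands 3 were analysed. The platelet factor gene Pf4 was apart at 13.3, 11.7 and 11.6, against 15.7, 17.4 and 23.5 (−0.57, limma adjusted p = 0.148). Cxcl13 (−0.66) and Cxcl14 (−0.20) overlapped, and Cxcl13 stood at 23.5 in control S594, against 1.51 and 2.21 in the other controls.

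Of the 3 processing genes, Adam17 was apart at 70.4, 68.1 and 89.3 in the knockouts, against 95.9, 114 and 126 in the controls (log2 fold change −0.55, limma adjusted p = 0.122, DESeq2 adjusted p = 0.0446). Adam10, the constitutive sheddase (−0.28), and Dpp4, which trims Cxcl12 (−0.02), overlapped. In the interferon gamma route 5 genes are reported. The receptor genes Ifngr1 (−0.06) and Ifngr2 (−0.11), the kinase genes Jak1 (−0.22) and Jak2 (0.14), and Irf1 (−0.29) overlapped.

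All 10 genes of the interleukin-17, interleukin-1, TNF and RNA decay route were analysed. Of these 6 were apart and lower, against 14.2% of all genes, and 2 apart and higher, against 11.3%. Il1b, the interleukin-1 beta gene, stood at 3.27, 2.75 and 2.28 in the knockouts, against 11.1, 9.46 and 33.0 in the controls (log2 fold change −2.12, limma adjusted p = 0.107). The receptor gene Il17ra stood at 15.0, 17.5 and 18.2, against 25.5, 29.4 and 42.8 (−0.88, limma adjusted p = 0.111). Its partner gene Il17rc stood at 26.6, 28.2 and 23.0, against 21.4, 18.2 and 22.0, with all knockouts above all controls (0.32, limma adjusted p = 0.239), and the adaptor gene Traf3ip2 was also above (0.32). Tnfrsf1a (−0.62), Tnf (−0.80), Il1r1 (−0.35) and the RNase gene Zc3h12a (−0.50) were apart and lower. Tnf, below 1 CPM in knockout S595 and S598, was analysed only through its controls. Nfkbiz (−0.29) and Zfp36 (0.03), whose product speeds decay of chemokine mRNAs, overlapped.

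All 5 genes of the signal relay behind the receptors were apart and lower, as were 14.2% of all genes. The arrestin gene Arrb2 stood at 35.1, 29.4 and 32.0 in the knockouts, against 53.0, 60.8 and 86.0 in the controls (log2 fold change −1.002). The leukocyte exchange factor gene Dock2 stood at 41.8, 30.9 and 50.7, against 71.5, 84.7 and 107 (−1.08). Both had a limma adjusted p of 0.107, and DESeq2 called both and Rac2 (−0.77). Pik3cg (−0.73) and Gnai2 (−0.17) completed the list, and Rac2, Dock2 and Pik3cg are genes mainly of blood cells.

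**Figure D4:**
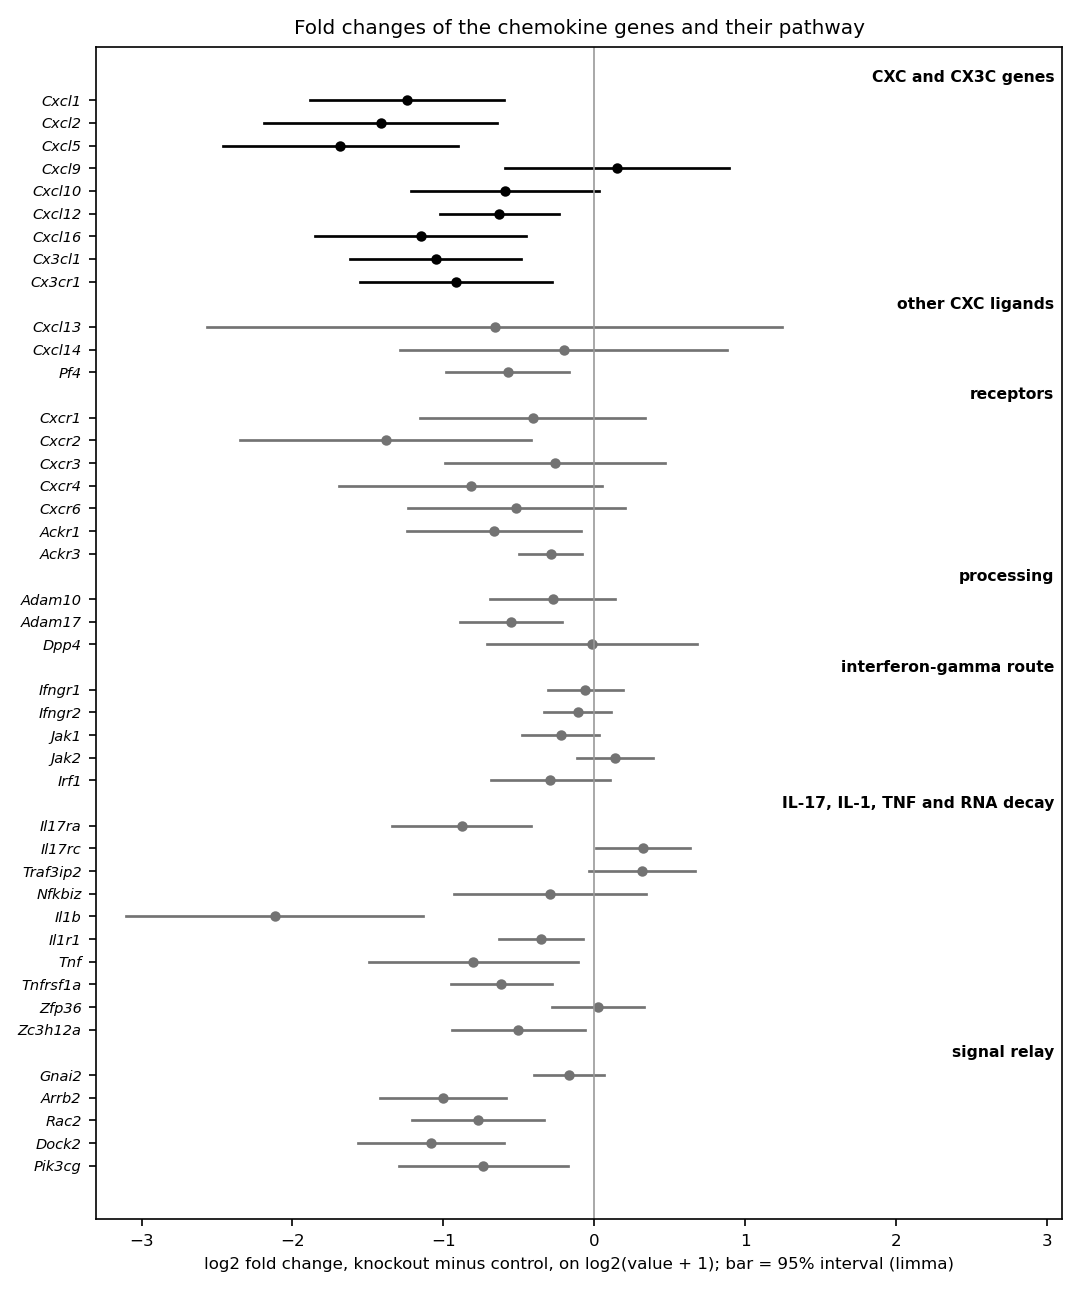
Log2 fold changes, knockout minus control, with 95% intervals from limma (horizontal axis) for the 9 CXC and CX3C genes (black) and the 33 other pathway genes (grey), grouped by role. Intervals of 7 of the 9 genes lie below 0, while those of Cxcl9 and Cxcl10 include it.

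The nearest patterns were measured as the root mean square difference of log2(value + 1) over the 6 libraries, with each gene centred on its own mean, among genes averaging at least 5 normalised CPM. Each neighbour was picked from 11505 or 11506 candidates over only 6 libraries, and no test was run. The SD of the members on this scale ran from 0.371 (Cxcl12) to 0.943 (Cxcl5), and the differences are not scaled to it. Cx3cl1 was nearest to the adhesion molecule gene Vcam1 (difference 0.0917) and the oxidase subunit gene Cyba (0.101). Cxcl12 was nearest to Cmip (0.0365) and the lysosomal gene Ctsa (0.0385). Cxcl16 was nearest to Psd4 (0.0711) and the kinase gene Btk (0.0723), and Cx3cr1 to Emp1 (0.0607) and the sialic acid receptor gene Cd33 (0.0993). For Cxcl1 the nearest were the fatty acid carrier gene Fabp5 (0.122) and the macrophage elastase gene Mmp12 (0.162). Cxcl2 was nearest to Tmem8 (0.126) and the oxidase subunit gene Ncf1 (0.137). The interferon-inducible genes Ifi211 (0.125) and Oas1g (0.164) were nearest to Cxcl5. Cxcl10 was nearest to Tacc3 (0.0877) and Zc3h12a (0.0988), and Cxcl9 to Nup210 (0.112) and Tfpi (0.153). Within the family the closest pair was Cxcl16 and Cx3cl1 (0.225), followed by Cxcl1 and Cx3cl1 (0.229), and Cxcl2 and Cxcl5 differed by 0.271. The farthest pair was Cxcl5 and Cxcl9 (1.11).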

How the data were processed

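The authors deposited 1 table of normalised signal per gene and library. Per the submitters' processing notes the tools were Bowtie 0.12.7 and RSEM 1.16, CASAVA 1.8, limma, edgeR and cutadapt 1.6.1, in roles that are not stated, and the build was NCBIM37. No annotation release or strandedness is given in the sources used here. RNA integrity numbers were at least 7.9, per the labels. Tested on the values, each deposited signal equals (reads + 0.5) times a library constant, and 100% gave whole reads within 0.01. One read was worth 0.0964 to 0.178 CPM. Every gene reached 1 CPM in at least 3 libraries, so lower genes were not analysed here. A gene below 1 CPM in most libraries of 1 group was analysed only where the other group was higher. The separation of such genes is partly set by that rule. Symbols matched 13828 of 14298 identifiers.

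Columns name a group but no sample, so no pairing was made. Knockout and control were compared with limma 3.58.1 (R 4.3.3) with its variance trend, on log2 of the value plus 1, without covariates. Two-sided p-values were adjusted over all 14298 genes by Benjamini-Hochberg. The filter (1 CPM in 3 libraries) removed 0 genes. Added tests on recovered reads used edgeR 4.0.16, DESeq2 1.42.0 and limma-voom. The fit was tested on simulated counts. One gene is left out of the pathway list and not reported here. Reads without molecular identifiers give precision for counting error only.

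The members and all gene lists were chosen with earlier results of these data known. Named genes were the 9 members, the pathway list, the 2 nearest patterns per member, Rbpj and Cdh5, and single cell type markers were named after their values were seen. The results were recomputed with other scalings, pseudocounts, filters, weights, variance models, tests and thresholds, with each library left out, and, chosen after seeing the data, the fit without S598 and S599.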

Additional observations from a re-analysis of the deposited data

How the results depend on the processing

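No paired analysis was possible because the columns carry no replicate number of the titles. Over 18 or 19 alternatives each, 8 of the 9 genes kept a negative sign. Cxcl9 ranged from −0.050 to 0.45 with 1 library left out, and turned to −0.02 without control S592, −0.050 without knockout S599 and −0.45 without knockout S598 and S599, and the cause was not tested. Of the 9 genes, 6 passed with limma array weights (all but Cxcl9, Cxcl10 and Cx3cr1, against 5.06% of all genes lower) and 6 with DESeq2, against 0 by limma, and 0 to 4 passed with 1 library left out, 4 of them without control S591. Cx3cr1 passed under no alternative, with adjusted p-values from 0.0560 to 0.475. Over all genes, limma passed 3, all higher, of which 2 were the airway markers Scgb1a1 and Bpifa1. The count was 10 at a threshold of 0.1, 0 with a pseudocount of 0.1, 0 for genes averaging at least 5 CPM, 1 without the intensity trend, 1011 with array weights, 894 with DESeq2, 0 with edgeR (2899 at an unadjusted p under 0.05), 0 with limma-voom (2988) and 0 without S598 and S599. It ran from 0 to 671 with 1 library left out, the highest without control S591. The median log2 fold change of all genes moved by less than 0.1 under either other scaling (−0.01 by median ratio, 0.03 by quantiles). Cxcl2, Cxcl9 and Cxcl10 rested on 4 to 58 reads per library, and a pseudocount of 5 took Cxcl2 to −0.64.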

Other observations

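Over all genes 14.2% were apart and lower and 11.3% apart and higher. Of 10 macrophage markers, 7 were apart and lower, among them the complement gene C1qa at 159, 134 and 193 normalised CPM in knockout S595, S598 and S599, against 248, 339 and 394 in control S591, S592 and S594 (log2 fold change −0.999, limma Benjamini-Hochberg adjusted p = 0.107). The engulfment receptor gene Mertk did not share this (149, 111 and 156, against 131, 149 and 128, log2 fold change 0.02). Of 6 monocyte markers 1 was apart and lower, near the share over all genes, the chemokine receptor gene Ccr2, at 29.1, 53.7 and 62.2, against 70.8, 62.6 and 104.

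The fat cell marker sum over 6 genes was 403 to 695 in the knockouts, against 304 to 1524 in the controls, with the highest value in S591, and the brown fat gene Ucp1 stood at 815 there. Of the 6 smooth muscle markers 3 were apart and higher, and of the 6 fibroblast markers 3 were apart and lower. Of the 10 endothelial markers 1 was apart and lower, also near that share, Nos3, at 31.9, 21.5 and 22.7 in the knockouts, against 46.6, 45.0 and 47.4 in the controls. Cdh5 stood at 109, 111 and 198, against 123, 126 and 146.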
